A study of Mus musculus with 6 samples.

Results

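CDK inhibitors of the Cip/Kip family, the Gadd45 genes, the cyclins G and the p53 pair Trp53 and Mdm2 were described in whole E12.5 mouse hearts with and without Hif1a in the cardiac lineage. The members are the rows of the deposited expression table whose symbol is Cdkn1a, Cdkn1b, Cdkn1c, Gadd45a, Gadd45b, Gadd45g, Ccng1, Ccng2, Mdm2 or Trp53, that is 10 of 15118 genes. All 10 passed the filter on low values (at least 1 RPKM in at least 3 hearts) and were among the 13080 genes tested. RPKM stands for reads per kilobase of exon, scaled to the reads of the library.

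Both groups hold 3 hearts from Black-Swiss embryos. Hif1a mutant hearts (mutants 5, 8 and 10) were NKX2-5 Cre/WT with a null and a floxed Hif1a allele, and control hearts (controls 2, 5 and 9) were NKX2-5 Cre/WT with a wild-type and a floxed allele. Both genotypes thus carry Cre and a floxed allele, and Cre in the NKX2-5 locus recombines floxed alleles in cardiac progenitors and heart muscle. Within that lineage, recombined control cells keep the wild-type allele alone, and recombined mutant cells keep no intact allele. Cells of the heart outside that lineage keep the floxed allele in both genotypes, and in mutant hearts carry the null allele beside it. The labels give each sample as its own heart and do not mention litters, so the p-values rest on the spread between hearts alone.

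Progression through the cell cycle is driven by cyclin-dependent kinases (CDKs), and the Cip/Kip proteins p21 (Cdkn1a), p27 (Cdkn1b) and p57 (Cdkn1c) bind cyclin-CDK complexes and hold cells out of division. The transcription factor p53 (Trp53) induces Cdkn1a after DNA damage, along with its own ubiquitin ligase Mdm2 and cyclin G1 (Ccng1), so these genes are commonly read as p53 output. Gadd45 proteins bind the stress kinase MAP3K4 and the proliferation factor PCNA, and their genes respond to DNA damage and to other stresses. In the fetal heart most muscle cells still divide, and p57 is a known regulator of embryonic growth encoded by an imprinted gene.

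The 250 bases before the RefSeq transcription start (GRCm38.p6, the assembly of mm10) are shown for Gadd45a and Cdkn1a, which had the largest differences between the genotypes, and for Mdm2 and Ccng1, the other p53 targets. Each is written 5′ to 3′ on the strand of the gene, with matches to the p53 half-site in capitals. The coordinates are chr6:67037408-67037657 (minus strand) for Gadd45a, chr17:29090729-29090978 (plus strand) for Cdkn1a, chr10:117710759-117711008 (minus strand) for Mdm2 and chr11:40755287-40755536 (minus strand) for Ccng1.
Gadd45a: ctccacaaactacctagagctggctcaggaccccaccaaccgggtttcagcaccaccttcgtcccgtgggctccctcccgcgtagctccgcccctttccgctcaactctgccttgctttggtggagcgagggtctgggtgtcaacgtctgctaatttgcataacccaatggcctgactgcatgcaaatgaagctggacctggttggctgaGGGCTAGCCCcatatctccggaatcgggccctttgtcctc
Cdkn1a: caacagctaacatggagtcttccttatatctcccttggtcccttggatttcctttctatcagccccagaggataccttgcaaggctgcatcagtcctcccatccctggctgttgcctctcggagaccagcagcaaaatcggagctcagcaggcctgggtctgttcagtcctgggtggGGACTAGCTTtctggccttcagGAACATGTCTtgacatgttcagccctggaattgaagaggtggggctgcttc
Mdm2: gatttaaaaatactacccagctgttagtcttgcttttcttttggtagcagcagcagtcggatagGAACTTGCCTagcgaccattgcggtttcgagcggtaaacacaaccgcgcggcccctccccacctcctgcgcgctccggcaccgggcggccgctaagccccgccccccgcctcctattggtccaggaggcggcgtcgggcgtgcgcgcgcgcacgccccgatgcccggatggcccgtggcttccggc
Ccng1: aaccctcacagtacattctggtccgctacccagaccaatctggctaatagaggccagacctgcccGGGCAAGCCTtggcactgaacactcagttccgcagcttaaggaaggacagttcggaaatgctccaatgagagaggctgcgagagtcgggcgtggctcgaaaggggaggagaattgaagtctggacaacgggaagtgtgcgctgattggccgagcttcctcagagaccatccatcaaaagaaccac
The half-site, searched by its usual consensus on both strands with a palindromic match counted once, occurred in 7.13% of all 32851 promoter windows of this length. It occurred in 5 of the 9 members with a promoter in the RefSeq table, namely these 4 and Trp53. The window of Cdkn1a shown lies before its upstream start and holds 2 matches, and the window before its second start (chr17:29093519-29093768) holds none. The hypoxia response element core ACGTG was found for 2 of the 9 members (Gadd45b and Gadd45g), against 16.6% of all windows. The composite element of CHOP and ATF factors, searched as TGATGNAA, was found for Gadd45g alone among them, against 3.45% of all windows, and the FoxO core GTAAACA for Mdm2 alone, against 3.17%. These matches are letters in a window and carry no measure of binding.

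The libraries differed along an axis that followed genotype only in part. The low values of the table imply between 100300000 and 157500000 reads behind a library, and the hearts correlated between 0.967 and 0.994 across genes. On the first principal component (45.3% of the variance) mutant 8 and control 2 lay at the ends, and mutant 5 lay between controls 5 and 9. The summed RPKM of 28 copies of 5S ribosomal RNA ordered the hearts in the same way, with 31.3, 192 and 116 in mutants 5, 8 and 10 and 10.7, 31.2 and 71.9 in controls 2, 5 and 9. Genes of chromosome Y were near 0 in mutant 8 and control 9 and expressed in the other hearts. Hif1a itself, over all its constitutive exons, measured 75.7, 55.0 and 77.7 RPKM in mutants 5, 8 and 10, against 61.1, 46.4 and 46.4 RPKM in controls 2, 5 and 9, which does not check the deletion, since no source used here names the exons removed. Of 10 reference HIF1 targets 6 were lower in mutant hearts and none higher. All 13 heart muscle markers looked up were expressed, with summed values of 19055 to 20628 RPKM in mutant hearts and 18111 to 19957 RPKM in control hearts.

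Gadd45a was the only member that passed the test over all genes, and it was higher in mutant hearts. Cdkn1a and Cdkn1c had the next largest differences, also upward, without passing. Mdm2 and Gadd45b differed little, and Ccng1, Cdkn1b, Gadd45g, Ccng2 and Trp53 had values that overlapped between the genotypes. Over all tested genes 0.818% passed limma's adjusted p of 0.05 (107 genes), against 1 of 10 members. Of all tested genes 0.420% passed upward (55 genes) and 0.398% downward (52 genes). At an unadjusted p of 0.05, 4 of 10 members passed, against 11.2% of tested genes. The values of the genotypes did not overlap for 5 of 10 members, 4 with mutant above control and 1 below, against 17.0% of all tested genes, 7.60% above and 9.43% below. The members had a median log2 change (mutant minus control, taken on log2(RPKM + 1), a scale that shrinks changes of low genes) of 0.08, against −0.03 over all tested genes.

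**Figure D1:**
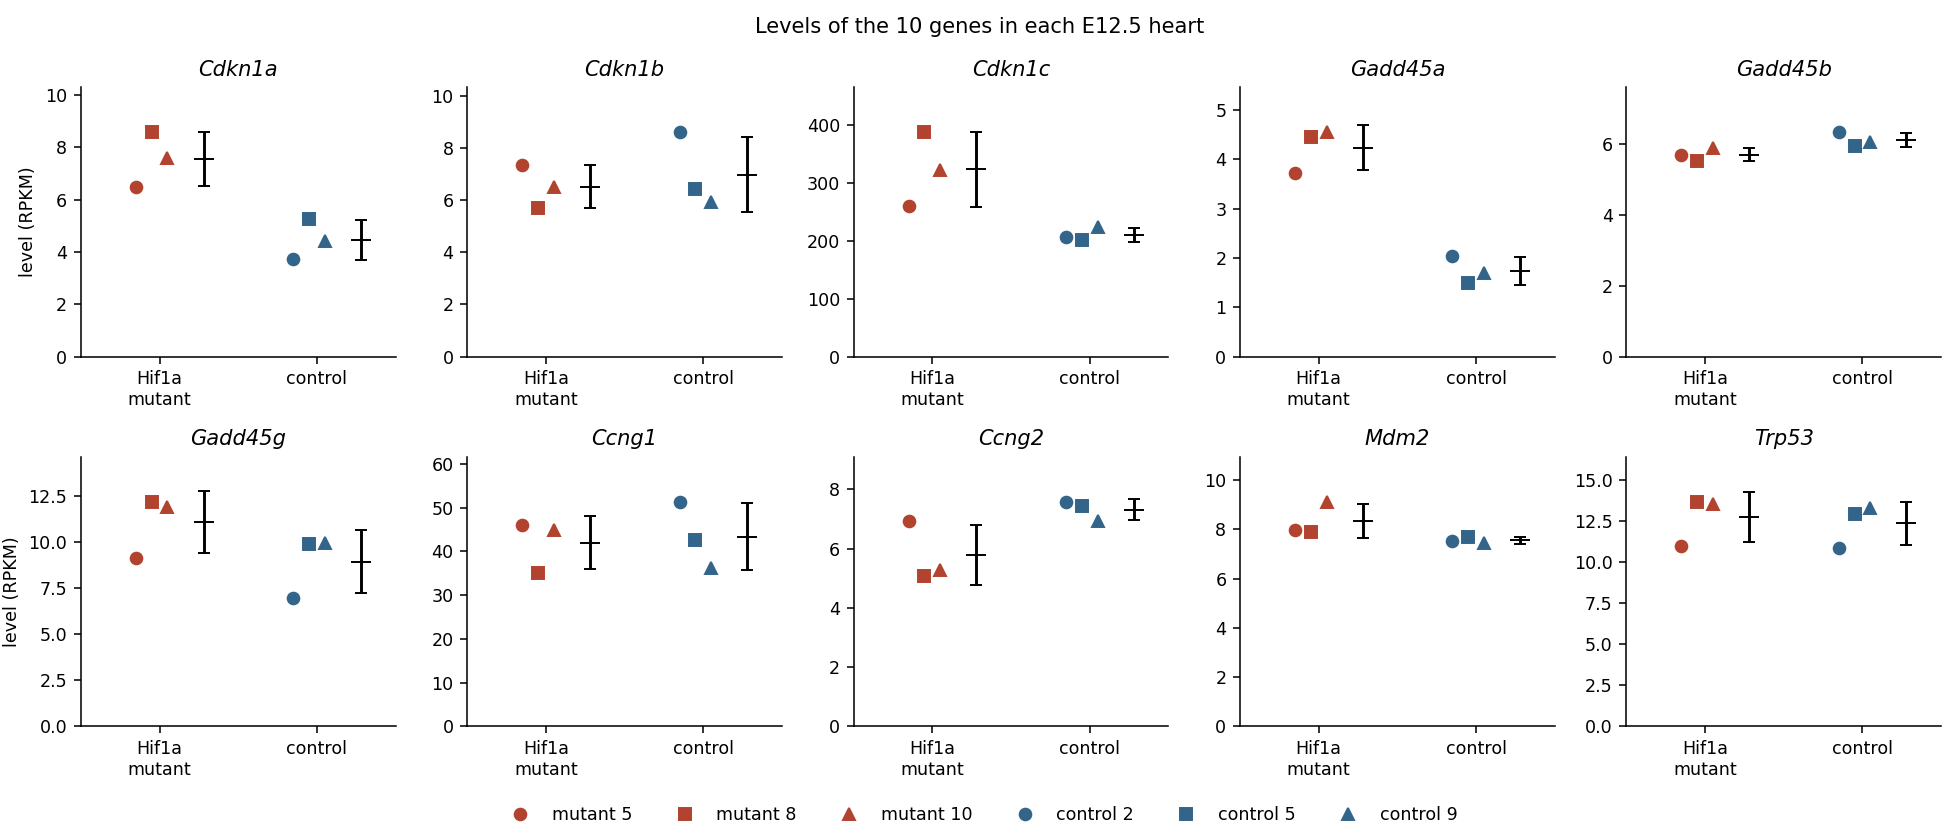
Level of each gene in RPKM (vertical axis, from 0) in each of the 3 Hif1a mutant and 3 control hearts, with the mean and SD of each genotype beside the points. Gadd45a, Cdkn1a, Cdkn1c and Mdm2 have all mutant hearts above all control hearts, Gadd45b has all mutant hearts below, and the other 5 genes overlap.

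Among the Gadd45 genes, Gadd45a (ENSMUSG00000036390, mm10 chromosome 6, 67035096 to 67037457, minus strand) measured 3.72, 4.44 and 4.55 RPKM in mutants 5, 8 and 10, against 2.04, 1.49 and 1.70 RPKM in controls 2, 5 and 9. Every mutant heart lay above every control heart, and the lowest mutant heart, mutant 5, was above the highest control heart, control 2, by more than the range within either genotype. The means were 4.24 ± 0.450 RPKM in mutant hearts and 1.74 ± 0.280 RPKM in control hearts (SD, n = 3 each), a ratio of 2.43. The log2 change was 0.94 ± 0.12 SE with a 95% interval of 0.67 to 1.20 (limma adjusted p = 0.0070), rank 38 by p among the tested genes. A log2 change of this size or larger was found in 48 genes (0.367%). By its exon length some 360 to 1264 reads lay behind each value, which gives a counting error of at most 0.05 on the log2 scale, against a spread within genotypes of 0.14.

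A part of that signal has an uncertain source. In GENCODE M21, 337 of the 1764 exonic bases of Gadd45a are shared with the non-coding gene E230016M11Rik on the opposite strand, and whether the libraries kept the strand is not stated in the sources at hand. E230016M11Rik, named for this overlap, measured 1.22, 1.69 and 2.07 RPKM in mutants 5, 8 and 10, against 0.871, 0.790 and 0.836 RPKM in controls 2, 5 and 9. The change of that gene, 0.53 ± 0.13 SE on the log2 scale, had the same sign without passing (limma adjusted p = 0.14), and reads of the shared bases cannot be told apart between the genes.

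Gadd45b (ENSMUSG00000015312, chromosome 10, 80930073 to 80932204), a relative known for its response to TGF-beta and inflammatory signals, measured 5.69, 5.53 and 5.87 RPKM in mutants 5, 8 and 10, against 6.33, 5.94 and 6.06 RPKM in controls 2, 5 and 9. The ranges did not touch, with all mutant hearts lower, but the difference was small. On the log2 scale the change was −0.09 with a 95% interval of −0.29 to 0.11 (limma adjusted p = 0.75). Gadd45b also had the smallest spread of the Gadd45 genes, with a coefficient of variation of 3.07% in mutant hearts and 3.25% in control hearts. At its depth the counting error, up to 0.041 on the log2 scale, was as large as that spread (0.039).

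Gadd45g (ENSMUSG00000021453, chromosome 13, 51846678 to 51848468), the most abundant of the family, measured 9.14, 12.2 and 11.9 RPKM in mutants 5, 8 and 10, against 6.96, 9.89 and 9.96 RPKM in controls 2, 5 and 9. Mutants 8 and 10 were the highest hearts, control 2 was the lowest, and mutant 5 lay below controls 5 and 9, so the genotypes overlapped. The genotypes differed by 0.29 on the log2 scale, with a 95% interval of −0.06 to 0.64 (limma adjusted p = 0.53).

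Set against each other within a heart, which removes the scaling of the library, the Gadd45 genes stood in different proportions. Gadd45a made up 20.1%, 20.0% and 20.4% of the summed Gadd45 RPKM in mutants 5, 8 and 10, against 13.3%, 8.59% and 9.58% in controls 2, 5 and 9. Gadd45b made up 30.7%, 24.9% and 26.3% in mutants 5, 8 and 10, against 41.3%, 34.3% and 34.2% in controls 2, 5 and 9. Neither share overlapped between the genotypes, while the share of Gadd45g did. Shares of the same sum depend on each other, and Gadd45b itself had a log2 change of −0.09 (limma adjusted p = 0.75). The log2 ratio of Gadd45a to Gadd45b was higher by 1.39 in mutant hearts (two-sided exact permutation p = 0.1, the smallest that 3 hearts against 3 allow). The summed Gadd45 level was 18.5, 22.2 and 22.3 RPKM in mutants 5, 8 and 10, against 15.3, 17.3 and 17.7 RPKM in controls 2, 5 and 9.

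**Figure D2:**
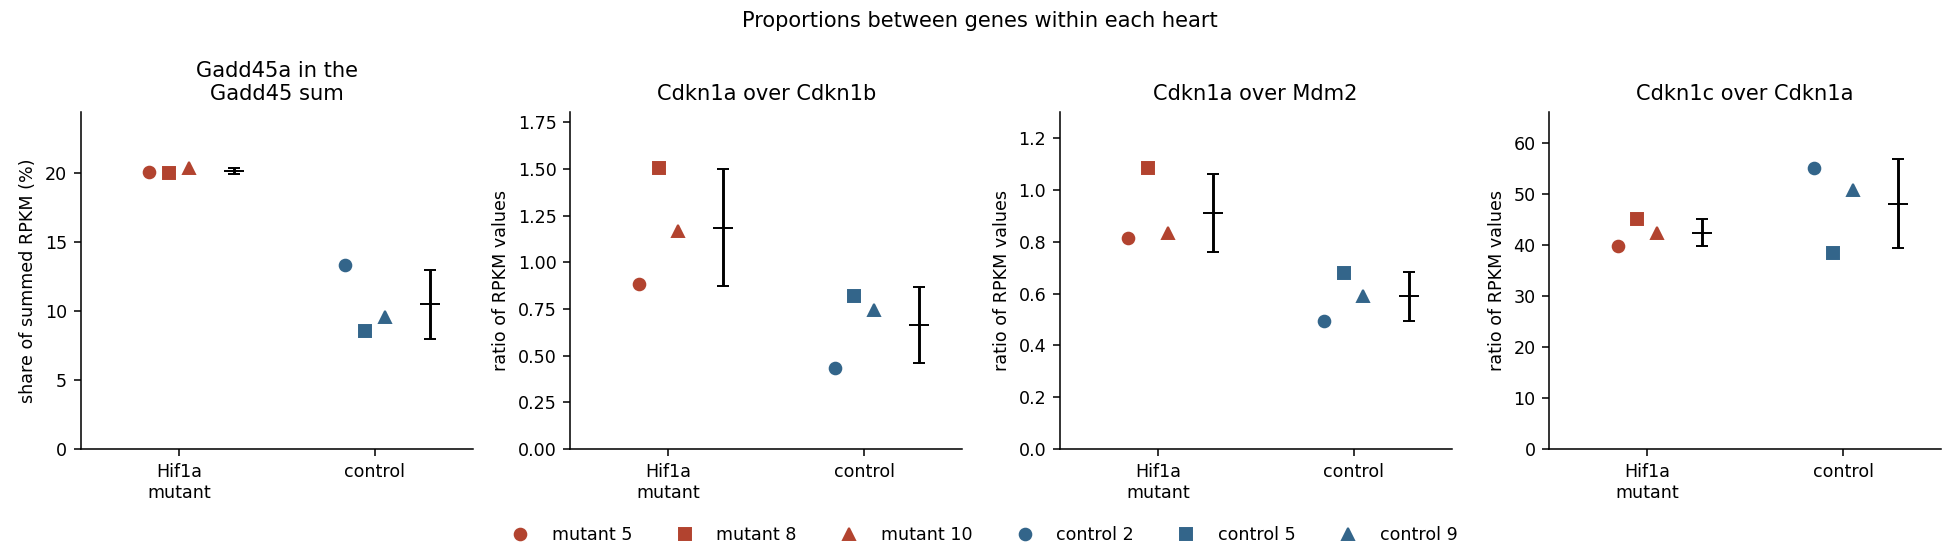
Share of Gadd45a in the summed Gadd45 RPKM, in percent, and 3 ratios of RPKM values between genes, by heart, with the mean and SD of each genotype. The Gadd45a share is near 20% in all mutant hearts and 8.59% to 13.3% in control hearts, both Cdkn1a ratios are higher in all mutant hearts, and the ratio of Cdkn1c to Cdkn1a overlaps.

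Among the Cip/Kip inhibitors, Cdkn1a (ENSMUSG00000023067, chromosome 17, 29090976 to 29100727, plus strand), which encodes p21, measured 6.50, 8.59 and 7.61 RPKM in mutants 5, 8 and 10, against 3.73, 5.25 and 4.41 RPKM in controls 2, 5 and 9. All mutant hearts were above all control hearts, with mutant 8 highest and control 2 lowest, the hearts at the ends of the first component. The means were 7.57 ± 1.04 RPKM in mutant hearts and 4.46 ± 0.764 RPKM in control hearts (SD, n = 3 each). The log2 change came to 0.65 ± 0.13 SE with a 95% interval of 0.35 to 0.96, which lies above 0, but the adjusted p over all genes was 0.077 in limma. The estimate was 0.47 without control 2 and mutant 8 together, and 0.74 (limma adjusted p = 0.042) without mutant 5. A log2 change at least as large was found in 116 genes (0.887%). In GENCODE M21, 273 of its 3553 exonic bases lie under a single unspliced transcript model on the other strand.

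Cdkn1c (ENSMUSG00000037664, chromosome 7, 143458339 to 143461050, minus strand), which encodes p57, was by far the most abundant member. It measured 259, 387 and 322 RPKM in mutants 5, 8 and 10, against 205, 202 and 224 RPKM in controls 2, 5 and 9. The mutant hearts were all higher and also more dispersed, with a coefficient of variation of 19.8% against 5.69% in control hearts. The means were 323 ± 63.9 RPKM in mutant hearts and 210.4 ± 12.0 RPKM in control hearts (SD, n = 3 each). The log2 change was 0.60 ± 0.14 SE with a 95% interval of 0.28 to 0.92 (limma adjusted p = 0.12). Without mutant 5, the mutant heart nearest to the control hearts, it was 0.75 (limma adjusted p = 0.027), and without control 2 and mutant 8 together 0.44 (limma adjusted p = 0.20). A log2 change at least as large was found in 137 genes (1.05%). In GENCODE M21 the antisense gene Gm44732 covers 625 of its 2039 exonic bases, and reads there cannot be told apart without the strand.

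Cdkn1b (ENSMUSG00000003031, chromosome 6, 134920401 to 134925513), which encodes p27, had overlapping genotypes. It measured 7.35, 5.70 and 6.51 RPKM in mutants 5, 8 and 10, against 8.60, 6.42 and 5.91 RPKM in controls 2, 5 and 9. Control 2 was the highest heart and mutant 8 the lowest, with the other hearts mixed between them. Its log2 change was −0.08 with a 95% interval of −0.40 to 0.25 (limma adjusted p = 0.86), and it was 0.14 without control 2 and mutant 8 together.

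The proportion of p21 to p27 transcripts was higher in all mutant hearts. Cdkn1a measured 0.885, 1.51 and 1.17 times the Cdkn1b level in mutants 5, 8 and 10, against 0.433, 0.818 and 0.746 times in controls 2, 5 and 9. The ranges were close but did not overlap, mutant 5 standing just above control 5. The difference in the log2 ratio was 0.85 (two-sided exact permutation p = 0.1, the smallest possible). The ratio was highest in mutant 8 and lowest in control 2, the hearts at the ends of the first component. Without both of these hearts Cdkn1a and Cdkn1b were both higher in mutant hearts, with log2 changes of 0.47 and 0.14. Cdkn1c outnumbered Cdkn1a per length by 39.9, 45.1 and 42.3 times in mutants 5, 8 and 10, against 55.1, 38.4 and 50.9 times in controls 2, 5 and 9, with overlapping ranges. It made up 94.9% to 96.4% of the summed Cip/Kip level in mutant hearts and 94.3% to 95.6% in control hearts, so the family sum followed Cdkn1c, at 273, 401 and 336 RPKM in mutants 5, 8 and 10, against 218, 213 and 234 RPKM in controls 2, 5 and 9.

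None of the 3 p53 targets among the members passed (1 at an unadjusted p of 0.05, limma), and their changes were unequal in size. Mdm2 (ENSMUSG00000020184, chromosome 10, 117688875 to 117710758, minus strand), the ligase that targets p53 for degradation, measured 8.00, 7.91 and 9.12 RPKM in mutants 5, 8 and 10, against 7.53, 7.71 and 7.45 RPKM in controls 2, 5 and 9. All mutant hearts were higher, mutants 5 and 8 by little, and the control hearts were within a coefficient of variation of 1.79%. For Mdm2 the log2 change was 0.12, with a 95% interval of −0.09 to 0.33 (limma adjusted p = 0.66).

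Ccng1 (ENSMUSG00000020326, chromosome 11, 40748552 to 40755311, minus strand), which encodes cyclin G1, measured 45.9, 35.0 and 45.0 RPKM in mutants 5, 8 and 10, against 51.3, 42.6 and 36.2 RPKM in controls 2, 5 and 9. Its highest heart was control 2 and its lowest mutant 8, as for Cdkn1b, and the genotypes overlapped. Its log2 change was −0.04 with a 95% interval of −0.38 to 0.29 (limma adjusted p = 0.93).

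Trp53 (ENSMUSG00000059552, chromosome 11, 69580359 to 69591873, plus strand), the gene of p53 itself, measured 11.0, 13.7 and 13.6 RPKM in mutants 5, 8 and 10, against 10.9, 13.0 and 13.3 RPKM in controls 2, 5 and 9. In each genotype a single heart stood lower, mutant 5 and control 2. Its log2 change was 0.04 with a 95% interval of −0.23 to 0.30 (limma adjusted p = 0.93). The protein p53 is controlled largely by its stability, which transcript levels do not measure.

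Side by side, the 3 p53 targets had log2 changes of 0.65 (Cdkn1a), 0.12 (Mdm2) and −0.04 (Ccng1), a median of 0.12, and none passed. The 7 other members ranged from −0.31 (Ccng2) to 0.94 (Gadd45a), with a median of 0.04, and 1 passed. Both groups thus spanned small and large changes. Within a heart, Cdkn1a measured 0.813, 1.09 and 0.834 times the Mdm2 level in mutants 5, 8 and 10, against 0.495, 0.681 and 0.592 times in controls 2, 5 and 9, without overlap (difference in log2 ratio 0.63, two-sided exact permutation p = 0.1, the smallest possible). The ratio of Cdkn1a to Ccng1 did not overlap either (0.81 on the log2 scale, exact permutation p = 0.1). Both ratios were highest in mutant 8 and lowest in control 2, the hearts at the ends of the first component. Without both of these hearts the log2 changes were 0.47 for Cdkn1a, 0.15 for Mdm2 and 0.20 for Ccng1. Gadd45a is itself known as a p53 target and stands with the other members here by the rule that defined the groups.

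**Figure D3:**
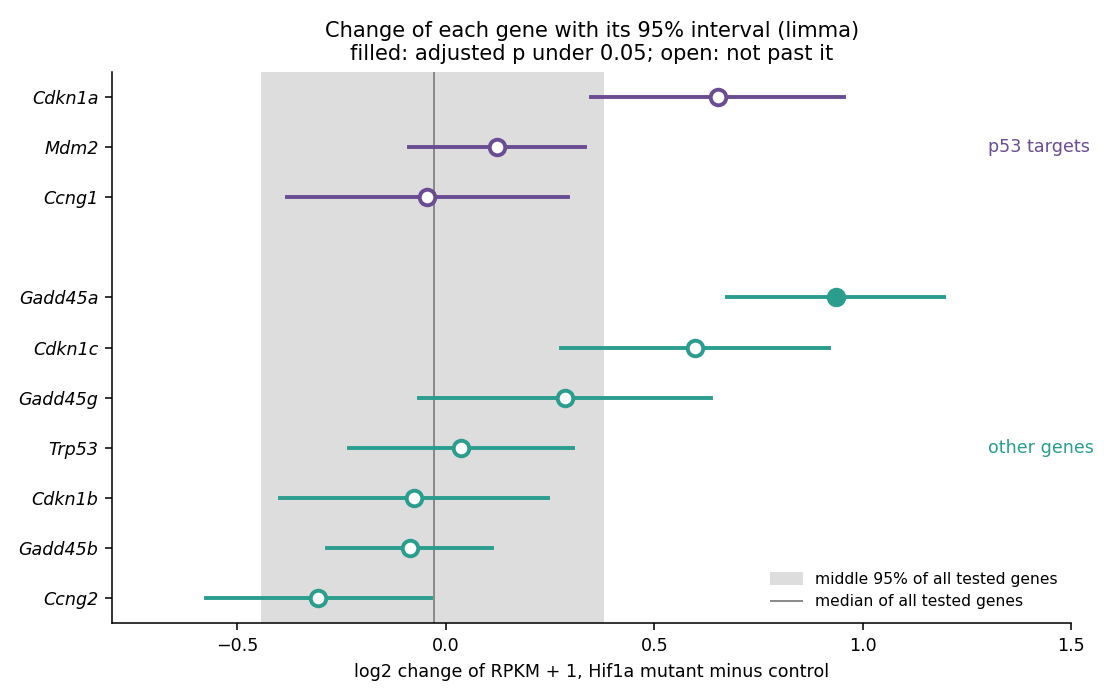
Log2 change of each gene, Hif1a mutant minus control, on log2(RPKM + 1), with its 95% interval from limma, for the 3 p53 targets (top) and the 7 other genes. The grey band holds the middle 95% of all tested genes (−0.44 to 0.38). Gadd45a, Cdkn1a and Cdkn1c lie to its right, and only Gadd45a (filled) passed the adjusted p of 0.05.

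Ccng2 (ENSMUSG00000029385, chromosome 5, 93267257 to 93276231), which encodes cyclin G2, a growth arrest cyclin known as a FoxO target, was the member with the most negative change. It measured 6.94, 5.09 and 5.29 RPKM in mutants 5, 8 and 10, against 7.58, 7.45 and 6.92 RPKM in controls 2, 5 and 9. Mutants 8 and 10 lay below all control hearts, and mutant 5 was just above control 9. Its log2 change was −0.31 ± 0.12 SE with a 95% interval of −0.58 to −0.04 (limma adjusted p = 0.38). At an unadjusted p of 0.05, 6.26% of tested genes were lower in mutant hearts. The ratio of Ccng1 to Ccng2 was 6.62, 6.87 and 8.50 in mutants 5, 8 and 10, against 6.77, 5.72 and 5.24 in controls 2, 5 and 9, with mutant 5 below control 2.

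In order of level per length, mutant hearts had Cdkn1c, Ccng1, Trp53, Gadd45g, Mdm2, Cdkn1a, Cdkn1b, Ccng2, Gadd45b and Gadd45a, with means of 323 to 4.24 RPKM. Control hearts had Cdkn1c, Ccng1, Trp53, Gadd45g, Mdm2, Ccng2, Cdkn1b, Gadd45b, Cdkn1a and Gadd45a, with means of 210.4 to 1.74 RPKM. Trp53 and Gadd45g overlapped in their ranges in mutant hearts, as did neighbours from Mdm2 down to Gadd45b, and neighbours from Gadd45g down to Gadd45b did in control hearts. Cdkn1a stood sixth in mutant hearts and ninth in control hearts, where its range lay below that of Gadd45b.

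The 5 members whose genotypes overlapped had control 2 and mutant 8 as their extreme hearts, the ends of the axis on which the libraries differed. They were not alone in this, and between these ends only Ccng2 among the 5 kept the order of the axis. Cdkn1a and Cdkn1c, without overlap, were also highest in mutant 8, followed by mutants 10 and 5. Cdkn1a was lowest in control 2 and Cdkn1c in control 5. Without control 2 and mutant 8 together their log2 changes were 0.47 and 0.44. Ccng2 ran in exactly the order of the hearts on the first component, highest in control 2, then control 5, mutant 5, control 9 and mutant 10, and lowest in mutant 8. Without control 2 and mutant 8 together its log2 change was −0.21 (limma adjusted p = 0.53). Ccng1 and Cdkn1b had the same order of hearts, from control 2 through mutants 5 and 10 and controls 5 and 9 to mutant 8. Gadd45g and Trp53 had the opposite ends, from mutant 8 through mutant 10 and controls 9 and 5 to mutant 5 and control 2. On the first component the scores ran from −21.4 in control 2 over −8.00, −5.71, −0.15 and 9.04 in control 5, mutant 5, control 9 and mutant 10 to 26.2 in mutant 8. The directions of Ccng1, Cdkn1b and Trp53 turned round without control 2 or without mutant 8, with values of 0.08, 0.06 and −0.05 without control 2. The part of that axis in these levels was not tested.

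**Figure D4:**
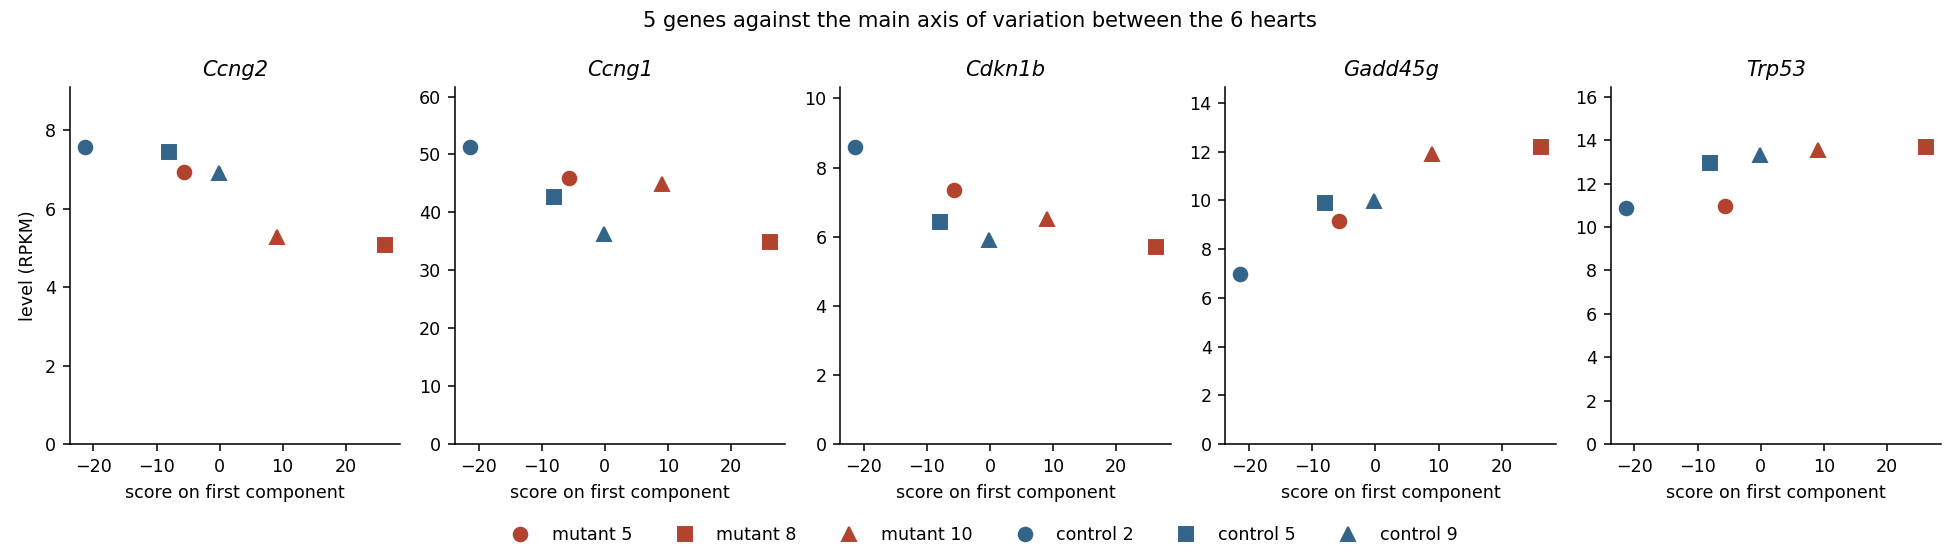
Level in RPKM (vertical axis, from 0) of Ccng2, Ccng1, Cdkn1b, Gadd45g and Trp53 against the score of each heart on the first principal component of all tested genes. Ccng2, Ccng1 and Cdkn1b are highest in control 2 and lowest in mutant 8, and Gadd45g and Trp53 are highest in mutant 8 and lowest in control 2, with both genotypes mixed between those ends.

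Genes with the heart-to-heart pattern most like Gadd45a and Cdkn1a were sought among tested genes averaging 2 or more on the log2 scale, by Pearson's r over the 6 hearts, as a description with no test. For Gadd45a the closest of 8215 genes were Bcat1 (r = 0.991), a branched-chain aminotransferase, Ngdn (0.989) and Nme2 (0.987). Bcat1 passed the test (log2 change 1.33, limma adjusted p = 0.0013), with means of 6.40 RPKM in mutant and 1.92 RPKM in control hearts, and Ngdn and Nme2 did not. For Cdkn1a the closest were Fxr2 (r = 0.993), Tymp (0.992) and Ramp2 (0.986), none past the threshold. Over 6 hearts in 2 genotypes such values include the difference between the genotypes, and the match within a genotype was not measured apart.

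Few other genes of these pathways passed the test. Of 19 tested p53 targets beyond the members 1 passed as higher and none as lower (3 at an unadjusted p of 0.05). Their median log2 change was 0.02, with 11 positive and 8 negative. The gene that passed was Sesn2, a brake on mTORC1 signalling that ATF4 is also known to induce. It measured 3.60 ± 0.565 RPKM in mutant and 1.78 ± 0.037 RPKM in control hearts (SD, n = 3 each, limma adjusted p = 0.021). It did not pass when mutant 10 or any single control heart was left out (limma adjusted p = 0.078 to 0.12), nor in either subset of 4 hearts. The DNA damage sensor Ddb2 measured 2.26 and 2.96 RPKM in mutant and control hearts and the nuclease Aen 4.80 and 3.70 RPKM, neither past the threshold. None of 15 regulators and partners of p53 passed in limma (1 at an unadjusted p of 0.05, median −0.04), with the deubiquitinase Usp7 at 11.1 RPKM in mutant and 13.9 RPKM in control hearts, Rpl11 at 561 and 484 RPKM, and the kinase Atm at 2.25 and 2.74 RPKM.

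None of 8 tested genes listed as INK4 inhibitors, retinoblastoma family or their partners passed in limma, nor at an unadjusted p of 0.05 (median −0.12). The INK4 genes Cdkn2a and Cdkn2b had no row under those symbols and were not tested. Rb1 measured 2.55 RPKM in mutant and 3.32 RPKM in control hearts, Rbl2 2.99 and 3.48 RPKM and the partner Lin9 5.12 and 6.12 RPKM. None of 14 cyclins, CDKs and partners that the inhibitors and Gadd45 proteins bind passed in limma (1 at an unadjusted p of 0.05, median −0.02), with cyclin E1 (Ccne1) at 9.57 RPKM in mutant and 7.92 RPKM in control hearts, Cdk1 at 50.8 and 59.6 RPKM and cyclin A2 (Ccna2) at 51.3 and 61.9 RPKM. None of 9 genes for turnover of the inhibitors passed in limma (1 at an unadjusted p of 0.05, median −0.05), where Dtl measured 5.58 RPKM in mutant and 6.82 RPKM in control hearts, Cul1 39.0 and 42.0 RPKM and Skp2 3.98 and 4.25 RPKM. None of 9 rows for 8 stress kinase genes downstream of or bound by Gadd45 passed in limma, also at an unadjusted p of 0.05, and all 9 had a negative change (median −0.10). Map3k4 has 2 rows in the table, ENSMUSG00000079716 with 7.62 RPKM in mutant and 8.77 RPKM in control hearts, which GENCODE M21 does not list, and ENSMUSG00000014426 with 5.49 and 5.78 RPKM, which it does. Reads of the gene may be divided between them. In the same list Mapk9 measured 6.11 RPKM in mutant and 6.72 RPKM in control hearts and Map2k6 6.35 and 6.94 RPKM.

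Of 18 rows for 17 further growth arrest genes 1 passed limma's adjusted threshold as higher and none as lower (median −0.02). At an unadjusted p of 0.05, 6 of the 18 passed, against 11.2% of all tested genes. The genotypes did not overlap in 7, with mutant above in 3 and below in 4. Over all tested genes 17.0% did not overlap, 7.60% with mutant above and 9.43% below. The gene past the adjusted threshold, Ppp1r15a, also called Gadd34 and a phosphatase subunit of the integrated stress response, measured 7.04, 7.29 and 6.66 RPKM in mutants 5, 8 and 10, against 3.52, 4.28 and 3.85 RPKM in controls 2, 5 and 9 (log2 change 0.71 ± 0.10 SE, limma adjusted p = 0.012). It did not pass without mutant 10 (limma adjusted p = 0.065), without control 9 (0.059) or in the 4 hearts with chromosome Y expression (0.12). Tob2 also has 2 rows, ENSMUSG00000078960 with 1.20 RPKM in mutant and 0.812 RPKM in control hearts, absent from GENCODE M21, and ENSMUSG00000048546 with 1.62 and 1.54 RPKM, and Btg1 measured 6.79 and 8.32 RPKM, none past the threshold. None of 9 FoxO factors and targets passed in limma (1 at an unadjusted p of 0.05, median −0.03), with Klf15 at 1.91 RPKM in mutant and 1.25 RPKM in control hearts, Irs2 at 1.58 and 1.38 RPKM and Foxo3 at 2.19 and 2.45 RPKM.

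Targets of ATF4 and CHOP, some of which are known to be induced in the same stress response as Gadd45a and Ppp1r15a, were higher as a list, and this was known when the list was made. Of 15 tested 9 passed limma's adjusted threshold as higher, Sesn2 among them, and none as lower (12 at an unadjusted p of 0.05). Their median log2 change was 0.82, with 14 positive. Asns measured 46.5 RPKM in mutant and 9.92 RPKM in control hearts, Trib3 11.1 and 1.01 RPKM and Ddit3, which encodes CHOP, 18.4 and 4.51 RPKM. Any link between this list and the Gadd45a change was not tested. The reference HIF1 targets had a median of −1.18, with Bnip3 at 17.0 RPKM in mutant and 81.7 RPKM in control hearts, Pdk1 at 3.96 and 19.2 RPKM and Ldha at 216 and 565 RPKM.

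Neighbours of Cdkn1c in its imprinted domain were looked at beside it, but Kcnq1ot1, Phlda2, Ascl2 and Th had no row under those symbols. None of 6 tested genes there passed in limma (1 at an unadjusted p of 0.05, median −0.04, 5 of 6 negative), with Trpm5 at 0.867 RPKM in mutant and 1.24 RPKM in control hearts, Osbpl5 at 7.83 and 8.55 RPKM and Cd81 at 153 and 158 RPKM. None of 15 other imprinted genes passed in limma (3 at an unadjusted p of 0.05, median −0.09), with Peg10 at 6.59 RPKM in mutant and 9.18 RPKM in control hearts, Zim1 at 7.43 and 10.5 RPKM and Mest at 746 and 561 RPKM.

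Markers of some other cell types had lower sums in mutant hearts, beside the higher Gadd45a, Cdkn1a and Cdkn1c values. In whole hearts fewer cells of a type and less RNA per cell cannot be told apart. The 12 macrophage markers in the table summed to 11.6 to 30.4 RPKM in mutant hearts and 36.7 to 42.7 RPKM in control hearts, with all 10 tested members negative, none past limma's adjusted threshold and 8 at an unadjusted p of 0.05. Epicardial and mesenchymal markers summed to 315 to 428 RPKM in mutant and 483 to 530 RPKM in control hearts (12 of 13 negative, none past limma's threshold, 5 at an unadjusted p of 0.05), and endothelial markers to 161 to 173 and 167 to 186 RPKM (9 of 12 negative, none past it, 5 unadjusted). Heart muscle markers had a median of 0.01 (8 of 13 positive, none past it, 2 unadjusted). Erythroid markers had a median of −0.05 (6 of 8 tested negative, none past it or at an unadjusted p of 0.05), with sums of 11713 to 20962 RPKM in mutant and 13952 to 16538 RPKM in control hearts. No value in the table is 0, and 1 macrophage and 4 erythroid markers had no row under the symbol looked up. Their part in the results was not tested.

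Across 15 other settings that tested it, Gadd45a had a positive change in each, of 0.45 to 1.24, and passed in 14. It did not pass in the 4 hearts with chromosome Y expression (log2 change 0.90, limma adjusted p = 0.079), and was close to the threshold without mutant 10 (limma adjusted p = 0.0498) and without control 5 (0.0475). Cdkn1a and Cdkn1c passed in 1 of 16 settings each, without mutant 5. Mdm2, Gadd45b, Gadd45g and Ccng2 kept their sign in all 16 and never passed.

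**Figure D5:**
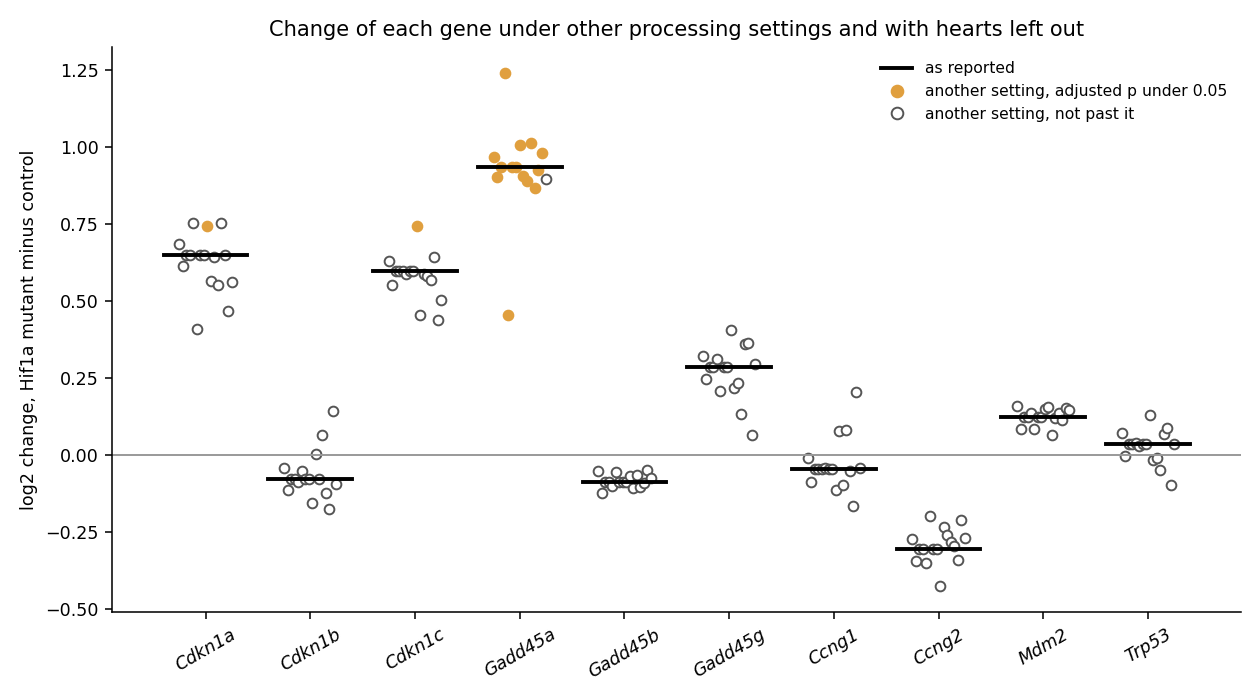
Log2 change of each gene (Hif1a mutant minus control) as reported (black bar) and under each other setting (points, filled where limma's adjusted p was under 0.05), settings with another pseudocount included. Gadd45a lies between 0.45 and 1.24, Cdkn1a and Cdkn1c are positive throughout with 1 filled point each, and Ccng1, Cdkn1b and Trp53 lie on both sides of 0.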

How the data were processed

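Whole-heart total RNA was sequenced on Illumina libraries (labels' protocols). The submitters' processing notes name Trim Galore, TopHat2 and the build mm10. No source used here states the counter, the annotation or the strand. The authors deposited linear RPKM values per gene and heart. The header names no unit, which was read from the values. Implied reads come from steps in single-exon genes (79.0% to 86.7% of low values within 0.1 of a whole read).

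The members and lists were chosen with earlier results of these data known. Log2(RPKM + 1) of the 13080 tested genes was fitted with limma 3.58.1 (R 4.3.3, mean-variance trend, no covariates), with two-sided p-values and Benjamini-Hochberg adjustment over all genes at 0.05. Named genes are the members, Hif1a, up to 3 genes of smallest p per list and the 3 nearest patterns. The fit was tested on simulated data. Coordinates and exon lengths come from GENCODE M21, promoters from RefSeq (GRCm38.p6). Ratios within hearts used exact permutation tests in SciPy 1.17.1. Alternatives were 2 scalings, 2 filters, 2 pseudocounts, 2 variance models, leaving out each heart, and 2 subsets of 4 hearts.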

Additional observations from a re-analysis of the deposited data

How the results depend on the processing

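Over the settings run, members kept their direction and their side of the threshold in 145 of 159 values, 2 gained a call, 1 lost it and 11 turned sign, none of them past the threshold. Over the other named genes 885 values kept both, 10 gained a call, 9 lost it and 6 turned sign. Leaving out each heart gave 45 to 198 genes past the threshold and 1 to 3 members (107 and 1 with all hearts). The count was 198 without mutant 5 (with 3 members, Gadd45a, Cdkn1a and Cdkn1c), 46 without mutant 10 and 62, 45 and 68 without control 2, 5 or 9. The 4 hearts with chromosome Y expression gave 54 genes and 0 members in limma. A minimum of 5 RPKM gave 0 members because Gadd45a was no longer tested. Higher genes were 51.4% of the calls, 62.6% (57 higher, 34 lower) after median centring and 40.0% (54 higher, 81 lower) after rescaling without haemoglobin genes. The median change of the p53 targets was 0.20 without control 2 and mutant 8, and that of the other members −0.0075 to 0.13 with a heart left out. Values that turned sign without control 2 and mutant 8 were Ccng1 (0.20), Cdkn1b (0.14), Trp53 (−0.10), Cul1 (0.045), Skp2 (0.038) and Tfrc (0.13), and after rescaling Trp53 (−0.0037). With a heart left out the changes spanned −0.16 to 0.082 for Ccng1, −0.17 to 0.064 for Cdkn1b, −0.046 to 0.13 for Trp53, −0.11 to 0.0046 for Cd81, −0.68 to 0.053 for Tfrc and −0.35 to 0.011 for Alas2. The causes were not tested. Counting error was at most 0.041 (log2) for Gadd45b, against a spread within genotypes of 0.039, so depth limits what its small difference can show, and for the other 9 members it was below that spread. No paired analysis was possible because the genotypes share a single sample number.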
